A study of Mus musculus with 6 samples.

Results

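The genes followed here are 9 members of the Notch pathway, namely the receptors Notch1, Notch2 and Notch3, the ligands Jag1 and Dll1, the Notch-like surface protein Dner, the transcription factor Rbpj and the target genes Hes1 and Hes5. They were chosen by name, as members of the pathway, with earlier results of these data known, and all 9 were found among the 32286 genes of the count tables. Nuclei were isolated from the cerebellum of 3 Pcp2-ATXN1[82Q] mice (SCA1 mice) and 3 wild-type littermates (WT mice, strain label C57Bl6), all 12 weeks old, and 1 library per mouse was sequenced. In SCA1 mice the Pcp2 promoter drives human ATXN1 with a long CAG repeat, and this promoter works in Purkinje cells (PCs), so the transgene was not directed to the other cells described here. In total 45473 nuclei were used, each with its deposited cell type label, and the counts of unique molecular identifiers (UMIs, each standing for a captured transcript) were summed per mouse and label.

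Notch receptors are cut after they bind a ligand on a neighbouring cell, and the freed intracellular part enters the nucleus, where it joins Rbpj and turns on genes such as Hes1 and Hes5. In the cerebellum the pathway is best known from glia, with receptors and Hes genes in Bergmann glia (BG) and other astrocytes. Dner (Delta and Notch-like EGF repeat containing) is a surface protein of neurons, made strongly by PCs and described as a ligand for Notch on Bergmann glia.

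The libraries held 18916647 to 98366627 UMIs from 3354 to 10897 nuclei, with a median of 2246.5 to 7253 UMIs per nucleus, and 254 nuclear barcodes occurred in more than 1 library (508 nuclei, 3 of them PCs). Of the 24 labels, 13 had at least 10 nuclei in each mouse and were tested. They are PCs (292 nuclei), BG (1243), velate astrocytes (VA, 1014), oligodendrocytes (OL, 1384), granule neurons (37532), 5 labels of inhibitory interneurons (Pvalb-Nefh, Pvalb-Rab3b, Pvalb-Chrm2, Pvalb-Cadm1 and Lgi2), the labels Slc17a6-Nrgn and Slc17a6-Sln of excitatory neurons, and the label Dcn-Nnat. The names of the subtypes are those of the marker genes in the labels. Some subtypes were seldom the most frequent label of their cluster. This held for 0 of 458 nuclei in Pvalb-Rab3b, 38 of 263 in Pvalb-Chrm2 and 115 of 240 in Lgi2. Dcn-Nnat is an endothelial label in the deposited annotation, but the summed level of 4 endothelial markers was 79.0 to 132 counts per 1000000 UMIs (CPM) in these nuclei, against 4395 to 7916 CPM under the endothelial label Flt1-Lrg1, while 3 of 3 fibroblast markers were highest under Dcn-Nnat. It is therefore called by its name only. The 8 PC markers were Pcp2, Calb1, Car8, Ppp1r17, Itpr1, Slc1a6, Gad2 and Rgs8, and 7 of them were highest in PCs. They summed to 12139 to 19939 CPM in PCs and to 226 to 2300 CPM in granule neurons, BG and OL. The CPM of these label checks are per library size only, while levels given per mouse within a label below are also scaled by TMM factors, which correct for differences in RNA composition. Human ATXN1 UMIs were found in 162 nuclei of the SCA1 mice, of which 31 were PCs, and in 15 to 35 nuclei of each WT library, of which 0 were PCs.

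The gene for Dner lies on chromosome 1 from 84369839 to 84696221 on the minus strand of GRCm38, and overlaps the predicted genes Gm37959 and Gm37925 on the same strand and the microRNA gene Mir5126 on the other. Notch1 lies on chromosome 2 (26457903 to 26516663, minus strand) and overlaps 0610009E02Rik and Gm13568 on the other strand and Mir6996 on its own. Notch2 lies on chromosome 3 (98013527 to 98150361, plus strand) and overlaps Gm42819 and Gm42820 on the same strand. Notch3 lies on chromosome 17 (32120820 to 32166852, minus strand) and overlaps Gm17276 on the other strand. Jag1 lies on chromosome 2 (137081456 to 137116644, minus strand). Dll1 lies on chromosome 17 (15367354 to 15376872, minus strand), where it overlaps A930024N18Rik on the other strand. Hes1 (chromosome 16, 30064384 to 30067796) and Hes5 (chromosome 4, 154960923 to 154962371) are short genes on the plus strand, and Hes5 overlaps Gm20421 on the other strand. Rbpj (chromosome 5, 53466152 to 53657362, plus strand) overlaps Gm10441 and Gm40304 on the other strand and has 2 annotated pseudogenes, neither of them in the count tables, so that reads shared with them may be uncertain. Since reads on introns were counted too, long genes such as Dner can give more UMIs than short ones, and levels are compared between cell types and not between genes.

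The promoters of the target gene Hes5 and of Dner are shown because they stand for the 2 ends of the pathway, a gene that Rbpj is known to bind and a neuronal surface protein. Each is the RefSeq sequence (GRCm38.p6) of 250 bases before to 50 bases after the start of the gene, chr4:154960673-154960972 on the plus strand for Hes5 and chr1:84696172-84696471 on the minus strand for Dner, printed 5′ to 3′. Capitals mark the Rbpj motif GTGGGAA or its reverse complement TTCCCAC.
Hes5: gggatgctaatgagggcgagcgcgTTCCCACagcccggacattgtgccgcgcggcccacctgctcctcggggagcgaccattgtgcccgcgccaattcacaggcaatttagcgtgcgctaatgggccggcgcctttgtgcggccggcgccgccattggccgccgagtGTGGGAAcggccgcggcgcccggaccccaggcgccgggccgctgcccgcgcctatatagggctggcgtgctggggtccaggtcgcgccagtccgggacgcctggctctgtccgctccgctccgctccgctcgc
Dner: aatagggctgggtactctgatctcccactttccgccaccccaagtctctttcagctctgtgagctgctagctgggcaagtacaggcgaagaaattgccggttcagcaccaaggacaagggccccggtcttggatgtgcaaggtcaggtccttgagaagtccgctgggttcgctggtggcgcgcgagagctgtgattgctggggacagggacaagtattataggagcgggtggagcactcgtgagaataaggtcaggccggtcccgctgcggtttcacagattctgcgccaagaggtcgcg

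The Hes5 window held 2 matches, from its bases 25 and 168, in opposite orientations, and the Dner window none. Of 32851 promoter windows of the same length, 6.38% held at least 1 match on either strand and 0.256% held 2 or more. The table listed 8 of the 9 members, and the windows of Notch1, Notch2, Notch3, Jag1, Dll1 and Rbpj held no match. A match describes these letters only, and its absence says nothing of what binds elsewhere.

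PCs held by far the highest level of Dner. Its level in PCs was 1443 ± 374 CPM (SD, n = 6 mice), next came the Lgi2 interneurons at 531 ± 56.6 CPM, the other interneurons and the excitatory labels at 252 to 423 CPM, and granule neurons, glia and Dcn-Nnat nuclei at 44.4 to 91.1 CPM. PCs were above each of the 12 other labels in edgeR's quasi-likelihood test (adjusted p of at most 0.05 over all genes), where 25.7% of all genes tested against these labels were higher in PCs. The nearest label, Lgi2, fell short of PCs by a log2 difference of 1.97 (SE 0.26, edgeR adjusted p = 8.3e-10), and PCs were higher in 6 of 6 mice. Over all pairs of tested labels, 42% of the gene tests passed.

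**Figure D1:**
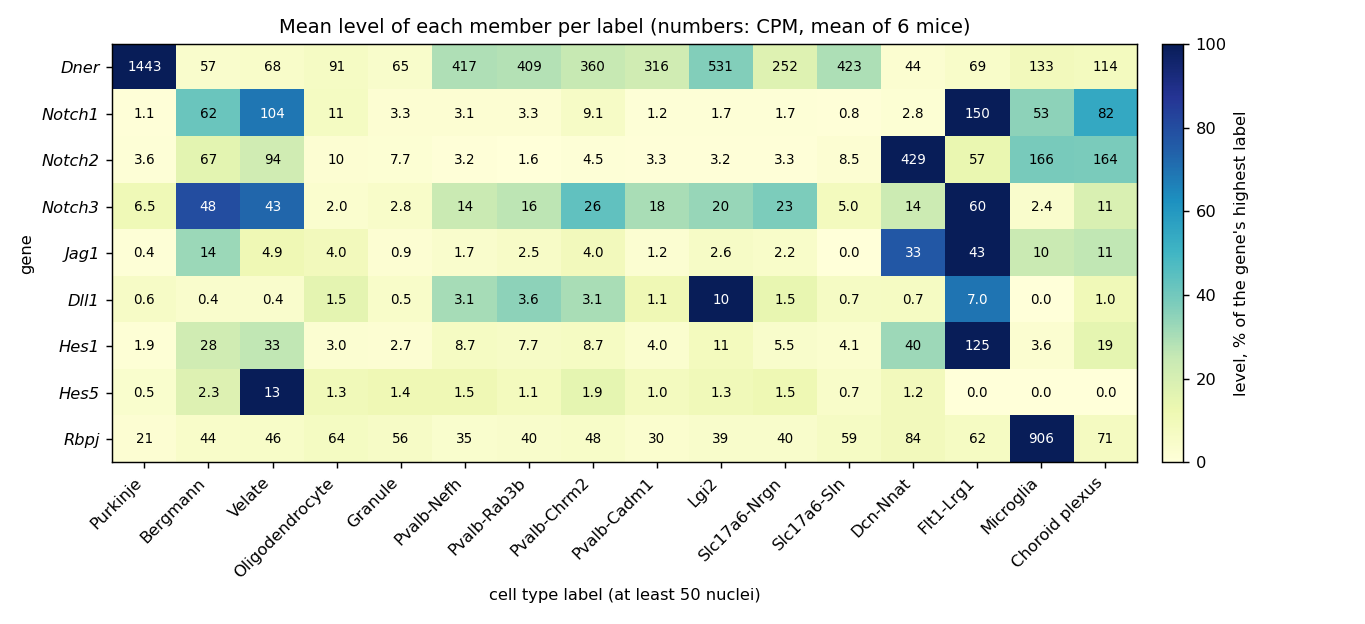
Mean level of the 9 members (rows) under the 16 labels of at least 50 nuclei (columns). Numbers are CPM averaged over 6 mice, and colour is the percentage of the gene's own highest label, so rows cannot be compared with each other. Dner peaked in PCs at 1443 CPM, Notch2 in Dcn-Nnat nuclei at 429 CPM and Rbpj in microglia at 906 CPM.

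Below PCs the order of Dner levels had few clear steps. Lgi2 interneurons and Slc17a6-Sln nuclei differed by 0.52 (SE 0.27, adjusted p = 0.188, edgeR), and none of the neighbours from Slc17a6-Sln down to Slc17a6-Nrgn differed past the test (adjusted p of 0.561 to 1.00). The next step was clear, with the Slc17a6-Nrgn neurons, the lowest of these labels at 252 ± 39.2 CPM, above OL by a log2 difference of 1.53 (SE 0.27, edgeR adjusted p = 8.7e-07) in 6 of 6 mice. OL, VA, granule neurons, BG and Dcn-Nnat nuclei then followed without a difference between neighbours that passed the test (adjusted p of 0.103 to 0.857).

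**Figure D2:**
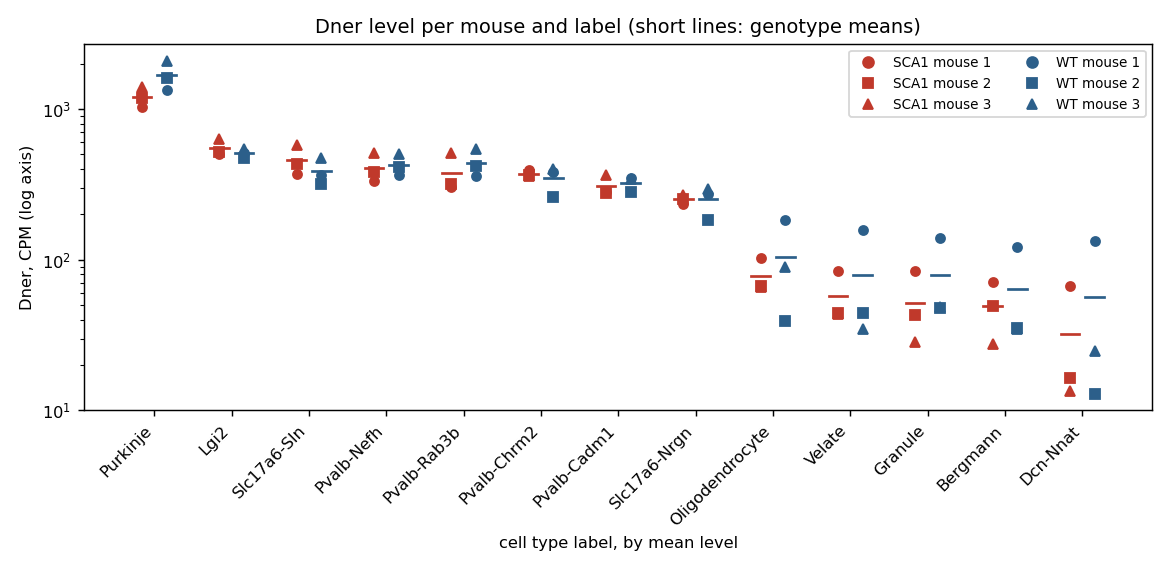
Dner level (CPM, log axis) of each mouse under the 13 tested labels, ordered by mean level, with SCA1 mice in red, WT mice in blue and short lines at the genotype means. The 6 values of PCs, from 1026 to 2096 CPM, lie above every value of every other label, and under the 5 lowest labels the mice spread over a wide range, with WT mouse 1 highest.

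In granule neurons the Dner level moved with the mouse and with the RNA of PC markers found in the same nuclei. It was 83.8, 43.0 and 28.5 CPM in SCA1 mice 1, 2 and 3 and 139, 47.9 and 48.8 CPM in WT mice 1, 2 and 3. The summed level of the 8 PC markers in the same granule nuclei was 1176, 829 and 412 CPM for SCA1 and 2143, 924 and 759 CPM for WT. Mouse 1 of each genotype, both of the first sequencing batch, was highest of its genotype in both quantities.

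Dner was then set against the PC marker sum of the same nuclei. As a percentage of that sum it was 8.25% to 10.6% in PCs themselves, 5.18% to 7.13% in granule neurons, 6.02% to 11.4% in BG and 4.57% to 7.38% in VA. None of the 8 markers was at 0 in the granule and BG nuclei of any mouse. In OL it reached from 4.97% to 21.4%. In the interneuron labels it was 17.8% to 124%, and in the Slc17a6-Nrgn neurons 26.0% to 71.2%, all above the highest percentage in PCs. The part of PC RNA in the Dner level of granule neurons and glia was not tested.

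**Figure D3:**
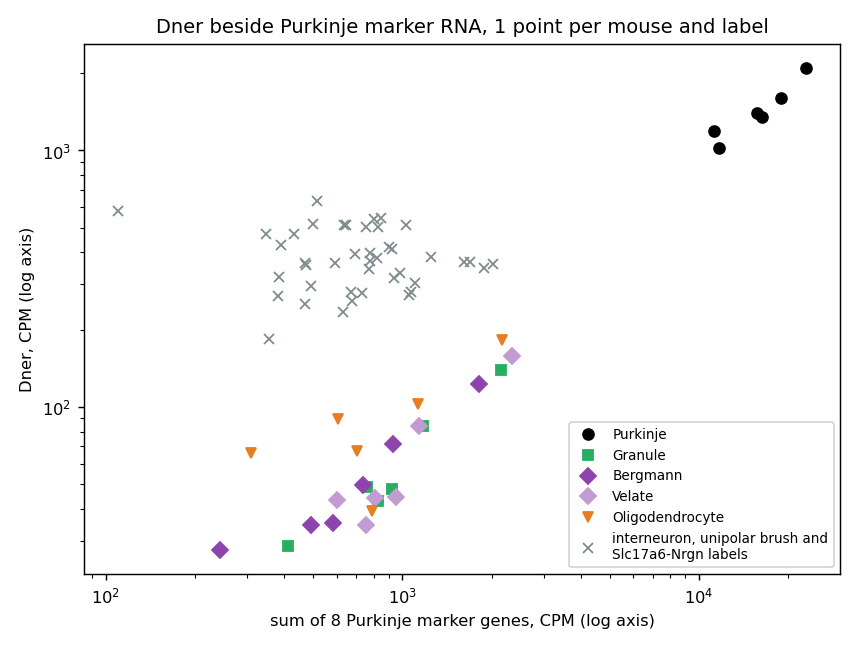
Dner level against the summed level of 8 PC markers (both CPM, log axes), with 1 point per mouse and label. Granule neurons and VA, with ratios of 4.57% to 7.38%, lie below the ratios of PCs (8.25% to 10.6%). BG (6.02% to 11.4%) and OL (4.97% to 21.4%) overlap with PCs in ratio. Interneurons and excitatory neuron labels other than granule neurons (crosses) lie above all ratios of PCs.

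By nuclei, 92.8% ± 7.42 (SD, n = 6 mice) of PCs held at least 1 Dner UMI at a median depth of 36466.5 UMIs, and 30.1% ± 22.5 of granule neurons did at a median of 5923 UMIs. With every nucleus thinned to 3000 UMIs, which left out 12 PCs and 5721 granule neurons, the shares were 88.5% ± 8.76 in PCs, 69.2% ± 6.71 in Lgi2 interneurons, 17.4% ± 11.7 in granule neurons and 21.02% ± 12.2 in OL. PCs gave 18.8% to 44.6% of all Dner UMIs of a library while giving 2.57% to 4.39% of all UMIs. Granule neurons gave 14.9% to 49.0% of the Dner UMIs, and the highest of these shares belonged to WT mouse 1.

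Within PCs the Dner level of the SCA1 mice was lower on average, with a difference that did not pass the test. The level was 1026, 1192 and 1401 CPM in SCA1 mice 1, 2 and 3, and 1346, 1596 and 2096 CPM in WT mice 1, 2 and 3. The genotypes overlapped, since SCA1 mouse 3 lay above WT mouse 1. The log2 fold change was -0.47 (SE 0.24, edgeR adjusted p = 0.817), and the direction was the same in both batches, with a difference of -320 CPM in batch 1 and of -549 CPM in batch 2. In PCs edgeR called 0 of 9821 genes (0%), 653 (6.65%) had an unadjusted p below 0.05, and DESeq2 called 66 of the 5251 genes to which it gave an adjusted p and limma-trend 0, with Dner at an adjusted p of 0.496 in DESeq2 and 0.831 in limma-trend. With library size only, the median of all genes in PCs was at 0.20 on the log2 scale in place of 0.02, and Dner at -0.29.

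The PC marker sum moved the same way as Dner. It was 11261 to 15669 CPM in PCs of SCA1 mice and 16312 to 22947 CPM in PCs of WT mice. Dner as a percentage of it was 8.78%, 10.6% and 8.94% for SCA1 and 8.25%, 8.45% and 9.13% for WT, so these ratios overlapped. The sum includes Calb1, Itpr1 and Rgs8, which the authors report as lower in SCA1 mice. A ratio to it therefore cannot show whether Dner itself fell. The authors list Dner among the genes altered in PCs and not in BG, VA or OL. They also report less Dner mRNA in SCA1 cerebella by quantitative PCR, and less DNER protein in PCs by staining. Interneuron markers in PC nuclei summed to 331 to 410 CPM for SCA1 and to 409 to 560 CPM for WT, granule markers to 64.6 to 243 CPM and to 58.2 to 454 CPM, and BG markers to 26.8 to 88.3 CPM and to 70.2 to 125 CPM. The interneuron list holds Gad1 and Pvalb, and its sum in PC nuclei is not a measure of interneuron RNA alone. The part of these lists in the Dner difference was not tested.

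The median PC nucleus held 39, 17 and 65 Dner UMIs for SCA1 and 62.5, 26 and 64 for WT, at median depths of 16186 to 58288 UMIs. In SCA1 mouse 2, 10 of its 52 PC nuclei had no Dner UMI, against 0 of 65 and 0 of 29 in the other SCA1 mice and 3 or 4 nuclei in each WT mouse. Among PC nuclei whose label was also the most frequent of their cluster, it was 9 of 49 in SCA1 mouse 2. There it was 3 of 29 in WT mouse 3 and 0 in each other mouse. The share of PC nuclei with a Dner UMI was 93.6% ± 11.1 in SCA1 and 92.0% ± 3.54 in WT mice (exact permutation test, two-sided, p = 0.8, where 3 mice against 3 cannot go below 0.1). Thinned to 3000 UMIs it was 86.9% ± 12.6 and 90.2% ± 5.11 (exact permutation p = 0.8). No direction of this share can be read, since it turned with the depth and with the rule for the label.

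Among the PCs of SCA1 mice, nuclei with a UMI of human ATXN1 held Dner (CPM per library size only) at 1110, 938 and 997 CPM in mice 1, 2 and 3, and nuclei without one at 1184, 1440 and 1628 CPM. These levels rest on 10, 10 and 11 nuclei with and 55, 42 and 18 nuclei without a human ATXN1 UMI in mice 1, 2 and 3. The nuclei with a human ATXN1 UMI were lower in 3 of 3 mice. They were also deeper in each mouse, with a median of 41307 against 37282 UMIs in mouse 1, 34274.5 against 7287.5 in mouse 2 and 58288 against 56243.5 in mouse 3.

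Outside PCs the Dner level of SCA1 and WT mice differed in no label past the test. In granule neurons the log2 fold change was -0.54 (SE 0.19, edgeR adjusted p = 1.00), with an unadjusted p below 0.05, as for 1.77% of all genes, beside the PC marker sums given above. In the interneuron labels it was between -0.23 and 0.11, in the Slc17a6-Nrgn and Slc17a6-Sln labels -0.01 and 0.23, in BG, VA and OL between -0.33 and -0.25, and in Dcn-Nnat nuclei -0.74 (SE 0.41, edgeR adjusted p = 1.00). The batches went opposite ways in BG, VA and OL, with differences of -51.0, -73.7 and -80.2 CPM in batch 1. In batch 2 they were 3.75, 4.25 and 2.34 CPM. The change in PCs minus the change in granule neurons was 0.02 (SE 0.67, adjusted p = 1.00, edgeR interaction, where 0 of 14497 genes passed, 676 had an unadjusted p below 0.05, and DESeq2 called 28 of 10000 with an adjusted p), so no difference of the changes was detectable. Over all nuclei of a mouse, Dner was 136 ± 21.7 CPM in SCA1 and 177 ± 38.97 CPM in WT mice (exact permutation p = 0.2), with differences of -60.7 CPM in batch 1 and -31.5 CPM in batch 2. In nuclei of at least 3000 UMIs the means were 137 and 201 CPM (exact permutation p = 0.2), with a difference of -66.1 CPM in batch 2. Without PC nuclei the means were 102 and 120 CPM (exact permutation p = 0.6). From such sums over all nuclei alone, fewer PCs and less RNA per PC cannot be told apart. PCs gave 2.57%, 2.65% and 3.24% of all UMIs in SCA1 mice 1, 2 and 3. In WT mice 1, 2 and 3 they gave 3.31%, 4.39% and 3.95%. The part of these shares in the sums was not tested.

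Among the tested labels Notch1 and Notch3 were highest in glia and Notch2 in Dcn-Nnat nuclei, while PCs held 17 UMIs of Notch1, 40 of Notch2 and 65 of Notch3. Notch1, the receptor most studied in stem cells and endothelium, was highest among the tested labels in VA at 104 ± 14.5 CPM, followed by BG at 62.4 ± 9.86 CPM (difference 0.59 on the log2 scale, SE 0.21, adjusted p = 0.0418, higher in 6 of 6 mice, where 17.4% of genes differed between these labels). That call was lost in 7 of 12 alternatives, among them the fit of WT mice only (adjusted p = 0.211). BG were above OL by 2.65 (SE 0.26), and PCs held 1.12 ± 1.01 CPM. Among labels too small to test, the 3 endothelial labels together held 165 CPM (95% exact Poisson interval 144 to 189, 217 UMIs, counting error only) and the 2 mural labels 198 CPM (128 to 292).

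Notch2 was highest in Dcn-Nnat nuclei, at 276 to 593 CPM over the mice, above VA by a log2 difference of 1.99 (SE 0.21, edgeR adjusted p = 2.9e-13) in 6 of 6 mice. VA (94.3 ± 18.6 CPM) and BG (67.3 ± 18.8 CPM) did not differ past the test (adjusted p = 0.242), and BG were above OL by 2.59 (SE 0.26). The label Dcn-Apod, of 36 nuclei, held 360 CPM (95% exact Poisson interval 287 to 447), and microglia held 175 CPM (143 to 211). In neurons the level was 1.64 to 8.45 CPM.

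Notch3, known from the smooth muscle cells and pericytes of small vessels, was at 1173 CPM (95% exact Poisson interval 992 to 1378, 148 UMIs) in the 25 nuclei of the mural labels and at 121 CPM (103 to 141) in the endothelial labels. Among the tested labels BG (47.6 ± 6.26 CPM) and VA (43.5 ± 8.37 CPM) were highest and did not differ past the test (adjusted p = 0.465). In the interneuron labels it was at 14.4 to 26.1 CPM. VA were above the highest of these, Pvalb-Chrm2, by 1.12 (SE 0.26). Slc17a6-Nrgn neurons held 22.6 CPM, and PCs held 6.45 ± 3.13 CPM, beside 2.85 CPM in granule neurons and 2.00 CPM in OL.

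Of the ligands, Jag1 was highest among the tested labels in Dcn-Nnat nuclei and Dll1 in Lgi2 interneurons. Jag1, a ligand known from Bergmann glia and vessels, was at 33.2 ± 4.25 CPM in Dcn-Nnat nuclei and at 14.1 ± 4.47 CPM in BG (difference 0.91, SE 0.32, adjusted p = 0.0187, a call lost in 3 of 11 alternatives), and in BG it was above VA (4.88 ± 2.25 CPM) by 1.53 (SE 0.35, adjusted p = 4.7e-04) in 6 of 6 mice. Thus BG and VA, which did not differ past the test in Notch2, Notch3, Hes1 or Rbpj, differed in Jag1. In PCs Jag1 had 6 UMIs in all, and Slc17a6-Sln nuclei had none. The 2 mural labels held 190 CPM (122 to 283). Dll1, a ligand known from developing neurons, did not pass the filter of the fit between labels, and its highest level was 10.1 ± 3.96 CPM in Lgi2 interneurons (48 UMIs), above the next label, Pvalb-Rab3b at 3.55 ± 2.10 CPM, in 6 of 6 mice. PCs held 5 UMIs of Dll1.

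Of the targets, Hes1, a repressor that Notch signalling turns on in many cells, was highest among tested labels in Dcn-Nnat nuclei (40.4 ± 21.9 CPM), VA (32.5 ± 21.2 CPM) and BG (27.5 ± 19.7 CPM), which did not differ past the test (adjusted p of 0.583 and 0.867). BG were above the next label, Lgi2, by 1.55 (SE 0.41, adjusted p = 8.7e-04), and PCs held 1.91 ± 1.15 CPM. The endothelial labels held 101 CPM (95% exact Poisson interval 84.8 to 120). Hes5 was highest in VA, with 13.0 ± 9.76 CPM, and was at 2.31 ± 2.83 CPM in BG and 1.92 CPM or less under the other tested labels. Its 91 UMIs in VA were spread over 5 of 6 mice, with none in WT mouse 3, and VA were above BG in 5 of 6 mice without a test, since Hes5 did not pass the filter.

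Rbpj, the DNA-binding partner of all Notch receptors, was present under every tested label. Microglia held 906 ± 443 CPM and the tested labels 20.5 to 83.9 CPM. In CPM, PCs were lowest at 20.5 ± 9.03 and Dcn-Nnat nuclei highest, and the neighbours in this order did not differ past the test (adjusted p of 0.107 to 0.983). On the scale of the fit, Pvalb-Cadm1 interneurons (29.9 CPM) were above PCs by a log2 difference of only 0.02 (SE 0.22). PCs were below granule neurons by a log2 difference of 0.93 (SE 0.16, edgeR adjusted p = 9.3e-07). Against the 42% of all genes, 53 of 78 pairs of labels passed for Dner, 47 for Notch3, 44 for Notch2, 41 for Jag1 and for Hes1, 37 for Notch1 and 36 for Rbpj.

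Against WT, no member changed in SCA1 mice past the test. edgeR called 0 of the 56 combinations of member and label that passed the filter on low counts, where it called 2 of 128055 over all genes (0.00156%). At an unadjusted p below 0.05 there were 3 of 56 by edgeR, where all genes gave 1.87% by edgeR. DESeq2 gave 3 and limma-trend 1. Over all genes, limma-trend gave 84 of 10900 in OL, the lowest share of a tested label, and 615 of 9821 in PCs, the highest. DESeq2 gave 33 of 10900 in OL and 489 genes in PCs. No share over all labels together was taken for these tools. In PCs, Dner and Rbpj alone passed the filter, and in granule neurons all 9 members did.

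**Figure D4:**
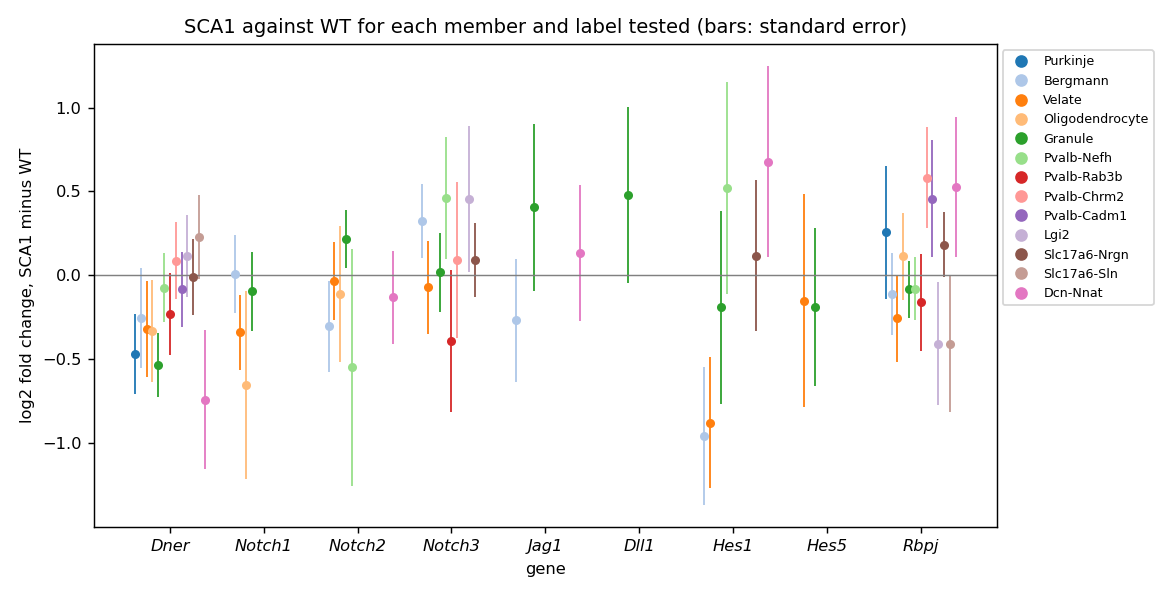
log2 fold change of SCA1 against WT mice for each of the 56 combinations of member and label tested, with bars of 1 standard error and colours for labels. No value passed an adjusted p of 0.05, and the lowest were those of Hes1 in BG (-0.96) and VA (-0.88).

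Hes1 was lower in SCA1 mice in both astrocyte labels by values that hung on 1 mouse. In BG it was 14.9, 25.5 and 13.1 CPM in SCA1 mice 1, 2 and 3 and 25.4, 66.3 and 20.0 CPM in WT mice 1, 2 and 3, with a log2 fold change of -0.96 (SE 0.41, edgeR adjusted p = 1.00). In VA it was 15.2, 26.5 and 27.5 CPM for SCA1 and 31.5, 74.2 and 20.3 CPM for WT, with a log2 fold change of -0.88 (SE 0.39, edgeR adjusted p = 1.00). Before adjustment both p were below 0.05, as for 1.72% of all genes in BG and 1.01% in VA. WT mouse 2 was far above the others in both labels, and the genotypes overlapped. It was the library with the lowest depth. Its values rest on 34 and 30 UMIs, and those of the other mice on 15 to 90 in BG and 10 to 69 in VA. Without WT mouse 2 the changes were -0.44 in BG and -0.38 in VA, and without WT mouse 3 they were -1.29 and -1.26. In nuclei of at least 3000 UMIs of all mice they were -1.03 and -0.76.

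In 3 of the 56 combinations the mice of both genotypes did not overlap, 2 with SCA1 below WT and 1 with SCA1 above, against 2.61% and 2.58% over all genes. Notch1 in VA was 91.5, 89.4 and 93.1 CPM in SCA1 mice and 108, 121 and 120 CPM in WT mice (log2 fold change -0.34, SE 0.22, edgeR adjusted p = 1.00). The genotypes stood apart with SCA1 lower, as for 2.46% of all genes in VA. Notch3 in BG was 52.3, 55.3 and 50.1 CPM in SCA1 mice and 37.9, 44.8 and 45.3 CPM in WT mice (0.32, SE 0.22, adjusted p = 1.00), so that every SCA1 mouse lay above, as for 2.11% of genes in BG. Rbpj in Slc17a6-Sln nuclei was the third, with every SCA1 mouse below (3.64% of genes there) and 65 UMIs in all. In VA the BG markers summed to 1341 to 1432 CPM in SCA1 mice and to 1401 to 1574 CPM in WT mice, and in BG the VA markers summed to 1289 to 1439 and to 1109 to 1342 CPM, and whether these moved the values of Notch1 and Notch3 was not tested.

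**Figure D5:**
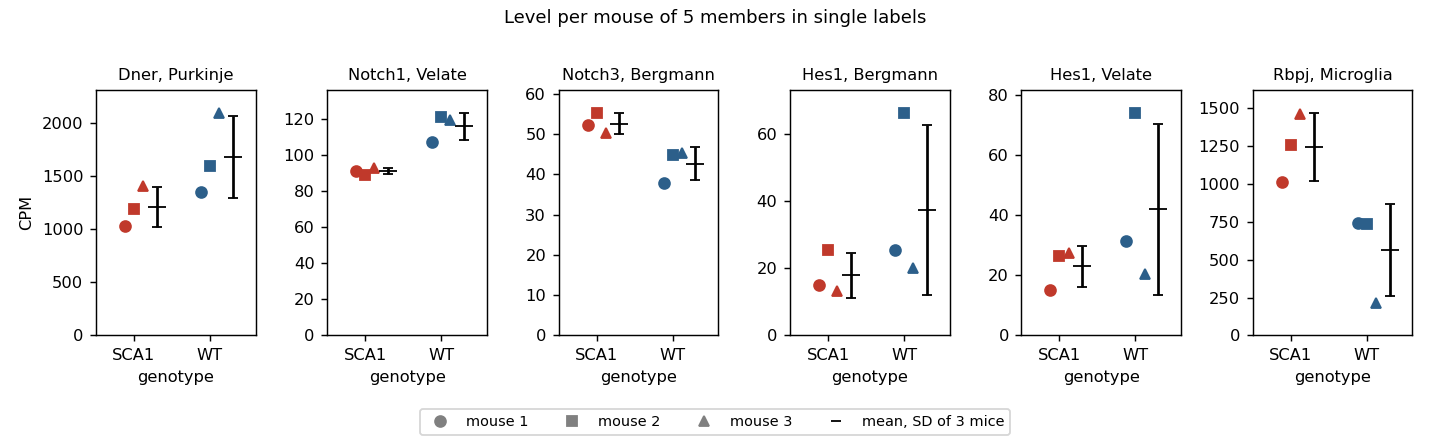
Level (CPM) of 5 members in single labels by mouse, with the mean and SD of 3 mice per genotype in black. SCA1 and WT mice overlap for Dner in PCs and for Hes1, where WT mouse 2 stands at 66.3 CPM in BG and 74.2 CPM in VA, and do not overlap for Notch1 in VA, Notch3 in BG and Rbpj in microglia.

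Microglia had 8 to 32 nuclei per mouse, and were tested after their Rbpj values had been seen. Rbpj was 1017, 1258 and 1467 CPM in SCA1 mice 1, 2 and 3 and 742, 737 and 216 CPM in WT mice 1, 2 and 3. Every SCA1 mouse lay above every WT mouse, as for 4.5% of all genes in microglia. The log2 fold change was 1.12 (SE 0.40, edgeR adjusted p = 1.00), with an unadjusted p below 0.05 as for 2.49% of genes, and the lowest value rests on 8 UMIs from 8 nuclei of WT mouse 3. Without that mouse the change was 0.71. In these nuclei the 4 microglia markers summed to 2346 to 2627 CPM in SCA1 and to 2082 to 3199 CPM in WT mice, the endothelial markers to 13.5 to 65.6 CPM and to 0 to 16.5 CPM, the oligodendrocyte markers to 334 to 1470 CPM and to 243 to 1517 CPM, and the granule markers to 698 to 852 CPM and to 324 to 1385 CPM. Their part in the Rbpj values was not tested. Notch2 in the same nuclei was 221, 162 and 250 CPM for SCA1 and 82.4, 170 and 108 CPM for WT, with an overlap. Dner in microglia had a log2 fold change of -1.12 (SE 0.51, edgeR adjusted p = 1.00), and the PC markers in these nuclei summed to 441 to 1258 CPM for SCA1 and to 649 to 3396 CPM for WT.

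The other genes of the pathway were followed as a list of 66 further receptors, ligands, glycosyltransferases, proteases, adaptors, corepressors and targets. edgeR called 0 of the 570 combinations of gene and label tested, against 0.00156% of all genes. It gave 8 (1.40%) at an unadjusted p below 0.05, where all genes gave 1.87% by edgeR. DESeq2 gave 3 and limma-trend 10, beside the counts over all genes given above for OL and PCs. In 13 combinations every SCA1 mouse lay below every WT mouse and in 16 above, against 2.61% and 2.58% over all genes. In PCs 44 of the 66 genes were tested, 20 with a positive sign and with a median log2 fold change of -0.01 (0.02 over all genes tested). In BG 50 were tested, 17 with a positive sign and a median of -0.03 (0.01 over all genes).

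The 3 genes of the list with the smallest p in PCs were Furin, the protease that first cuts the Notch precursor, and Dtx4 and Dtx1, ubiquitin ligases of the Deltex family. Furin was 22.5, 19.7 and 17.5 CPM in SCA1 mice and 25.1, 40.1 and 30.0 CPM in WT mice (-0.61, SE 0.28, edgeR adjusted p = 0.771), so that the genotypes did not overlap, as for 5.09% of genes in PCs with SCA1 lower. Mib2 and Jag2, of the 44 list genes tested in PCs, did not overlap either, with every SCA1 mouse higher. Over all genes and the 13 tested labels this held for 2.58%, and the share in PCs alone is not given. Dtx4 had a log2 fold change of -0.90 (SE 0.51) and Dtx1 of -0.48 (SE 0.32), both with an overlap of the genotypes. In BG the 3 of smallest p were Adam17, a protease that sheds Notch ligands and receptors (-0.65, SE 0.26, edgeR adjusted p = 1.00, with an unadjusted p below 0.05), the contactin Cntn6 (0.69, SE 0.32) and the corepressor Tle3 (-0.50, SE 0.29). Adam17 and Cntn6 overlapped between the genotypes, with Cntn6 at 148 CPM in WT mouse 1, above every SCA1 mouse. Tle3 was 18.1 ± 4.19 CPM in SCA1 and 25.6 ± 0.933 CPM in WT mice without an overlap, as for 2.61% of genes in BG.

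By level, Hes3, a repressor of the same family as Hes1 and Hes5, was the gene of the list with the largest lead of 1 label. It was at 116 ± 29.0 CPM in PCs and at 4.62 CPM or less under every other tested label, and PCs were highest in 6 of 6 mice, while Hes1 and Hes5 had 25 and 5 UMIs in the same nuclei. Hes3 in PCs was 130, 106 and 108 CPM for SCA1 and 136, 149 and 67.1 CPM for WT (-0.02, SE 0.27, edgeR adjusted p = 0.999). Aph1b, a subunit of the gamma-secretase that cuts Notch, was at 26.6 ± 6.11 CPM in PCs, which were highest in 5 of 6 mice. Among the tested labels Dcn-Nnat nuclei led for Aph1c (23.4 ± 13.0 CPM, highest in 4 of 6 mice), of the same family. They also led for Heyl (4.69 ± 5.17 CPM, highest in 3 of 6 mice). BG were marked by Lfng, which adds sugars to Notch receptors and alters which ligands they bind, at 66.1 ± 13.9 CPM against 31.1 CPM or less under the other tested labels. VA were marked by the astrocyte factor Sox9 (113 ± 20.5 CPM, and 102 ± 20.5 CPM in BG) and by Hey2 (19.8 ± 8.56 CPM), which is related to the Hes genes.

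Among the tested labels granule neurons had the highest levels of Neurl1a (155 ± 33.8 CPM), a ubiquitin ligase that acts on Notch ligands, and of Cntn6 (1222 ± 331 CPM), described as a Notch ligand, which Pvalb-Cadm1 interneurons shared (1052 ± 293 CPM). OL had the ubiquitin ligase Itch (460 ± 85.1 CPM) and the acetyltransferase Kat2b (269 ± 83.8 CPM). Slc17a6-Nrgn neurons had Dlk2 (20.0 ± 9.61 CPM) and Dlk1 (11.9 ± 9.11 CPM), which resemble Notch ligands, and were highest for both in 6 of 6 mice. Slc17a6-Sln nuclei had Fbxw7 (263 ± 37.5 CPM), which marks the cut Notch for breakdown. In the interneuron labels the leading genes of the list were Hey2 (10.7 ± 3.66 CPM) and Ptprz1 (1169 ± 264 CPM) in Pvalb-Nefh, Jag2 (16.7 ± 5.48 CPM) and Ptprz1 (1129 ± 271 CPM) in Pvalb-Rab3b, and Jag2 (15.8 ± 7.42 CPM) and Rbpjl (1.42 ± 1.18 CPM) in Pvalb-Chrm2. They were Cntn6 and Hes7 (2.55 ± 2.94 CPM) in Pvalb-Cadm1, and Neurl1b (2.36 ± 2.50 CPM) and Eogt (18.2 ± 6.37 CPM) in Lgi2. All of these but Hes7 had a higher level under another label.

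Genes with a pattern most like that of a member were sought over the 16 labels of at least 50 nuclei, by Pearson's r of log2(CPM + 1) in WT mice among 13378 genes of at least 20 CPM under some label. The labels of a mouse share its library and depth, and r is a description. For Dner they were Lhx5 (r = 0.948, and 0.812 in SCA1 mice), Kcnma1 (0.939 and 0.925), Flt3 (0.897 and 0.904), Shank1 (0.885 and 0.891) and Gm14372 (0.877 and 0.859), and all 5 were highest in PCs. Kcnma1 encodes a calcium-activated potassium channel and Shank1 a scaffold of excitatory synapses. For Notch1 the nearest was Lfng (0.933 and 0.964), a gene of the pathway list, followed by Jam2 (0.919 and 0.896) and Nedd9 (0.917 and 0.880). For Notch2 they were Pdpn (0.960 and 0.854), Ppp1r3b (0.915 and 0.910) and 2810403D21Rik (0.905 and 0.865).

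For Notch3 the likeness was weaker, with Fam214b at 0.849 in WT but 0.450 in SCA1 mice, Dennd3 (0.830 and 0.792) and Trib2 (0.820 and 0.689). Jag1 was most like Pdlim5 (0.940 and 0.734), Tcn2 (0.927 and 0.679) and Irf1 (0.924 and 0.610), Hes1 most like Pdgfd (0.891 and 0.853), Fbxl7 (0.880 and 0.890) and Cpt1a (0.877 and 0.787), and Rbpj most like Slc30a7 (0.956 and 0.753), Gdi2 (0.949 and 0.913) and Ctsb (0.944 and 0.903), all 3 highest in microglia. Dll1 and Hes5 did not reach 20 CPM under any of these labels. Among the members themselves, the highest r in WT mice was that of Notch3 and Hes1 (0.770, and 0.700 in SCA1 mice), followed by Notch1 and Jag1 (0.721 and 0.503) and by Jag1 and Hes1 (0.711 and 0.846), the last being the highest in SCA1 mice. In WT mice Dner had a negative r with each of the other members of at least 20 CPM, from -0.646 for Jag1 to -0.168 for Notch3.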

How the data were processed

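Nuclei came from whole cerebella of 3 SCA1 and 3 WT mice. The deposited values are raw UMI counts per gene and nucleus, and the deposited cell type labels are SingleR's. Before that, the authors aligned the reads with Cell Ranger (5.0.1 in their methods, while the submitters' processing notes also list 4.0.0 and 6.0.1) to mm10 with human ATXN1 added, counted introns, removed debris with DIEM (minimum 1000 UMIs, 3000 in the first run), and used R 4.1.0 and Seurat 4.0.4. The first run (batch 1) was inferred from library numbers in the labels as mouse 1 of each genotype. For their cell types the authors also asked that Seurat cluster and SingleR label agree. The main fits here used the SingleR label alone. Of the 292 PCs, 273 had the most frequent label of their cluster.

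The 9 genes and the pathway list were chosen with earlier results of these data known. Counts were summed per mouse and label and fitted with edgeR 4.0.16 (R 4.3.3): quasi-likelihood test, TMM factors, filterByExpr (minimum count 10, total 15), genotype and batch as terms for SCA1 against WT, label and mouse as terms for levels, Benjamini-Hochberg adjustment over all genes. Sums were used since nuclei of a mouse are not replicates. The authors' own test, limma-trend on scran-normalized nuclei, was not run. CPM are scaled by TMM within tested labels and in microglia and choroid plexus, with SD over mice. For levels between labels the factors were fitted over all labels together, so a log2 difference between labels need not match the ratio of their CPM. Intervals are 95% exact Poisson and cover counting error only. Likeness used all labels of at least 50 nuclei. A pathway gene is named if it was called in any label (none was), had 1 of the 3 smallest p in PCs or BG, or was 1 of the 2 genes with the highest level relative to the mean of the other tested labels. No doublet caller was run.

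Alternatives were DESeq2 1.42.0, limma-trend (limma 3.58.1, prior count 2), RLE factors, library size only, no filter, the replicate number as a block, leaving batch out, nuclei of at least 3000 UMIs, labels that were also the most frequent of their cluster, WT mice only for levels, thinning, and each mouse left out. Microglia and choroid plexus (at least 5 nuclei per mouse) were added after seeing the data. The fits were run on simulated data with known changes. Those data had no differences between batches or mice other than depth, and do not show which changes could be detected here. Tables and plots were made in Python 3.11.15 with pandas 2.3.3, numpy 2.4.6, matplotlib 3.10.9 and scipy 1.17.1.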

Additional observations from a re-analysis of the deposited data

How the results depend on the processing

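The 0 calls among the members held under all 15 alternatives (896 tests, lowest adjusted p = 0.0745), as did the 0 calls in the pathway list (8679 tests, lowest adjusted p = 0.0584). Of 811 member fold changes under an alternative, 63 had the other sign and 33 moved by more than 1 SE. Dner in PCs stayed between -0.57 and -0.29 over its 15 alternatives, with adjusted p from 0.0745 to 0.999. The labels do not say that replicate numbers pair the mice. For each mouse, the deviations of log2(CPM + 1) from the mean of its genotype were taken. These deviations correlated between same-numbered mice by more than 0.1 in every pair in 6 of 13 labels (0.672, 0.066 and 0.5 in PCs). Every mouse was closest to its own number in 6 of 13. With the replicate number as a block, Dner in PCs was at -0.46 (edgeR adjusted p = 0.0745), and 171 genes passed in PCs in place of 0. The other counts of calls in PCs were 66 by DESeq2, 223 with no filter, 8 with RLE factors, 1 with concordant labels, 7 without WT mouse 2 and 2 without WT mouse 3. The difference between PCs and granule neurons in the Dner change (0.02) was -0.0488 in nuclei of at least 3000 UMIs and -0.59 to 0.58 with each mouse left out (lowest without WT mouse 1). Notch1 in VA against BG (0.59) lost its call with no filter (0.59), concordant labels (0.63) and WT mice only (0.85), and was 0.49 to 0.67 with each mouse left out, where it lost the call without SCA1 mouse 2 or any 1 WT mouse. Jag1 in Dcn-Nnat nuclei against BG (0.91) lost its call in WT mice only (0.70), and was 0.79 to 1.03 with each mouse left out, where it lost the call without SCA1 mouse 1 or WT mouse 2. Hes1 in Dcn-Nnat nuclei against VA (0.28) was -0.67 in WT mice only and -0.17 to 0.45 with each mouse left out (negative without SCA1 mouse 1), and Rbpj in Dcn-Nnat nuclei against OL (0.24) passed with library size only (0.49). The share of PCs with a Dner UMI, 1.61 percentage points higher in SCA1 mice, was lower by -3.27 points thinned to 3000 UMIs, -1.60 in nuclei of at least 3000 UMIs and -2.67 with concordant labels, and ranged from -1.60 to 8.02 with each mouse left out (negative without SCA1 mouse 1 or 3). The causes were not tested. WT mouse 2 was the shallowest library, with 4784 of 6710 nuclei under 3000 UMIs, and 3 mice per genotype and 29 to 76 PC nuclei per mouse limit what could be detected.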
